A study of Mus musculus with 9 samples.

Results

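The 6 conventional actin isoform genes of the mouse, *Acta1*, *Actc1*, *Acta2*, *Actg2*, *Actb* and *Actg1*, were chosen by symbol, as a gene family, from an RNA-seq experiment on embryonic hearts. Each symbol occurred once among the 24571 gene symbols used, and all 6 genes passed the filter on low values (1 TPM or more on average, met by 13682 genes). TPM is a transcript abundance corrected for transcript length and scaled to a fixed total per library. The hearts came from C57BL/6N embryos late in gestation (E18.5), in 3 genotypes with 3 libraries each, namely wild type, heterozygous and homozygous for R567W, a substitution in a zinc finger of CTCF introduced into the mouse line by CRISPR/Cas9. CTCF is a DNA-binding protein that shapes chromatin loops and domains. The allele was carried by the animal as a whole, and whole hearts were homogenised, so that transcripts of every cardiac cell type entered a library. Nothing in the labels states whether a library held 1 embryo or which embryos were littermates, and p-values therefore measure the spread between these libraries.

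Actin polymerises into the thin filaments along which myosin pulls in muscle and into the cortical network and stress fibres of all cells. Vertebrates carry a cardiac (*Actc1*) and a skeletal (*Acta1*) striated muscle isoform, a vascular (*Acta2*) and an enteric (*Actg2*) smooth muscle isoform, and the cytoplasmic beta (*Actb*) and gamma (*Actg1*) isoforms. The developing heart also uses *Acta1* and transiently *Acta2* in cardiomyocytes. Genes of muscle actins are well-known targets of serum response factor (SRF), which binds a short DNA element called the CArG box.

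Actin proteins differ most at their amino-terminal end, so the first 60 coding bases of each are shown, from the GENCODE M21 transcripts (GRCm38), 5′ to 3′. Capitals mark the bases that differ from *Actc1* in an alignment of the full coding sequences.
Actc1: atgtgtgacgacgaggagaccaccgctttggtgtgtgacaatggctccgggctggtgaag
Acta1: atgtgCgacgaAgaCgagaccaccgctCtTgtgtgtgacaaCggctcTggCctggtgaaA
Acta2: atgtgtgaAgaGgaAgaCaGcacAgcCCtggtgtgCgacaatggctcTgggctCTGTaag
Actg2: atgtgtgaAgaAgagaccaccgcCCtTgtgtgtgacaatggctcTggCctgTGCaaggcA
Actb: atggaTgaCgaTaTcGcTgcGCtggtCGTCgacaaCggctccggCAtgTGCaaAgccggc
Actg1: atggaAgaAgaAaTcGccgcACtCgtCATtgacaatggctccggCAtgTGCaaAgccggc
Within this stretch *Acta1* differed from *Actc1* at 9 bases, *Acta2* at 14, *Actg2* at 11, *Actg1* at 17 and *Actb* at 19. Bases of *Actc1* that the alignment left without a partner were neither marked nor counted. There were 3 of these for *Actg2* and 6 each for *Actb* and *Actg1*, so the counts for these genes leave out part of the difference. Over the full coding sequence, identity ran from 81.5% between *Acta2* and *Actg1* to 88.7% between *Actb* and *Actg1*, and *Acta1* and *Actc1* shared 86.2%.

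Such similarity matters for how well reads can be assigned. All 31-base words of the annotated transcripts of a gene were looked up in the transcripts of all other genes. Only 0.756% of the words of *Actc1*, 1.21% of *Actg2*, 1.39% of *Acta2* and 4.11% of *Acta1* occurred elsewhere. For *Actb* the share was 23.6%, with *Lrrc58* transcripts as the main holder, and for *Actg1* it was 40.2%. Every coding word of *Actg1* was also present in another gene, chiefly *Gm12715*. The levels of both cytoplasmic actins are therefore less certain than those of the muscle actins, although *Gm12715* was listed at only 2.98 to 6.55 TPM and *Lrrc58* at 8.68 to 16.1 TPM.

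The 6 genes lie on 6 chromosomes, each on the minus strand of GRCm38. *Acta1* spans chr8:123891769-123894751, *Actc1* chr2:114047282-114053548, *Acta2* chr19:34241090-34255590, *Actg2* chr6:83512905-83536265, *Actb* chr5:142903115-142906754 and *Actg1* chr11:120345690-120348542. *Gm20388* (7.83 to 20.6 TPM) overlaps *Acta1* from the opposite strand and *A530058N18Rik* (2.47 to 3.94 TPM) overlaps *Actc1* in the same way. The use of strand in counting is not given in the sources used here, so reads from the stretches that overlap may have been assigned to either gene.

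RefSeq promoter sequences (GRCm38.p6, from 250 bases before to 50 bases after the annotated start) were held for 4 of the 6 genes. The 3 of muscle actins are printed because these genes varied together across the libraries, as shown further on. Capitals mark CArG boxes and CArG-like elements, the latter with 1 C or G in the A/T-rich middle of 6 bases; both forms read the same on either strand and do not overlap each other here. Sequences run 5′ to 3′ on the gene's strand, from chr8:123894726-123895025 for *Acta1*, chr2:114052826-114053125 for *Actc1* and chr19:34255324-34255623 for *Acta2*.
Acta1: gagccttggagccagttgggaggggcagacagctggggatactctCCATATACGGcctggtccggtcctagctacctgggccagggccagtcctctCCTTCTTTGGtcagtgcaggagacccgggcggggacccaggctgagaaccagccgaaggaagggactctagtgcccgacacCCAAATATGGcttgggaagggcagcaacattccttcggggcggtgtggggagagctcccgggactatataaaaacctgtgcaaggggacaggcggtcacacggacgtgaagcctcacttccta
Actc1: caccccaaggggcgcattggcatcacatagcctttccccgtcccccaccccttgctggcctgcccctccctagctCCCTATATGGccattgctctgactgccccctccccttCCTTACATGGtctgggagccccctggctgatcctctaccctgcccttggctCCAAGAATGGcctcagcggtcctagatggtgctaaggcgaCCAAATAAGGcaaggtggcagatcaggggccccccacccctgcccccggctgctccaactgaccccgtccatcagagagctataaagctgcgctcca
Acta2: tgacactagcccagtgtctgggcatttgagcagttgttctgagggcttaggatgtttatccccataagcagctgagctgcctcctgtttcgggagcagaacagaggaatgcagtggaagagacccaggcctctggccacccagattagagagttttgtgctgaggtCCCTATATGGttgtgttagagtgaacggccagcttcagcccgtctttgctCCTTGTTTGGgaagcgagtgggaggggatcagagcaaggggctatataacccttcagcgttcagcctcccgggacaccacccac
*Acta1* held 1 CArG box, first base at -73 from the start, and 2 CArG-like elements at -205 and -154. *Actc1* held 1 CArG box at -47 and 3 CArG-like elements at -175, -138 and -87. *Acta2* held no full CArG box in this window and 2 CArG-like elements at -84 and -34. In *Actg1* a single CArG box, CCATATATGG, began at -90. Among the 32851 promoters of the same length, 1.63% held a CArG box and 8.50% a CArG-like element. TATAAA, searched on both strands, was present in *Acta1* and *Actc1* and in 13.6% of all promoters. These matches describe letters in the reference and say nothing of binding in these hearts.

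The libraries each held 12946 to 14068 genes at 1 TPM or above. The summed level of 15 cardiomyocyte markers was 35543 to 48178 TPM and was lowest in homozygous replicate 3. Some libraries also held transcripts of other organs. Airway and lung markers summed to 2625 TPM in replicate 1 of the wild type and to 1114 TPM in replicate 1 of the heterozygous group, against 5.98 to 57.3 TPM elsewhere. Liver markers reached 3949 TPM in heterozygous replicate 1, and thymocyte markers 829 TPM in homozygous replicate 3. *Xist*, the transcript of the inactive X, was at 87.8 to 146 TPM in all heterozygous libraries, wild-type replicate 1 and homozygous replicate 1, while the other 4 libraries carried Y-linked transcripts. The R567W change cannot be read from gene levels. *Ctcf* itself stood at 27.01 to 34.29 TPM in wild-type, 33.15 to 38.65 in heterozygous and 38.89 to 50.22 in homozygous libraries. The homozygous libraries were thus above all others. Without overlap, 22.3% of all genes were higher in homozygous than in wild-type libraries and 12.0% higher than in heterozygous ones.

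In wild-type hearts *Actc1* was by far the most abundant isoform, with 9942 TPM ± 499 (SD, n = 3), followed by *Actg1* (671 ± 54.6), *Acta2* (501 ± 52.3), *Actb* (468 ± 68.6), *Acta1* (72.3 ± 6.78) and *Actg2* (8.23 ± 2.31). *Acta2* and *Actb* were the only neighbours in this order whose libraries overlapped. Homozygous hearts had less *Acta1* than wild-type hearts, with 25.3 TPM ± 10.8 (SD, n = 3). *Acta2* stood at 291 TPM ± 86.9 and *Actc1* at 8192 TPM ± 1638 (SD, n = 3), differences that did not pass the test, whereas that of *Acta1* did. The cytoplasmic actins *Actb* and *Actg1* had nearly the same mean in both genotypes. In whole hearts, fewer cells of a type and less RNA per cell cannot be told apart.

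**Figure D1:**
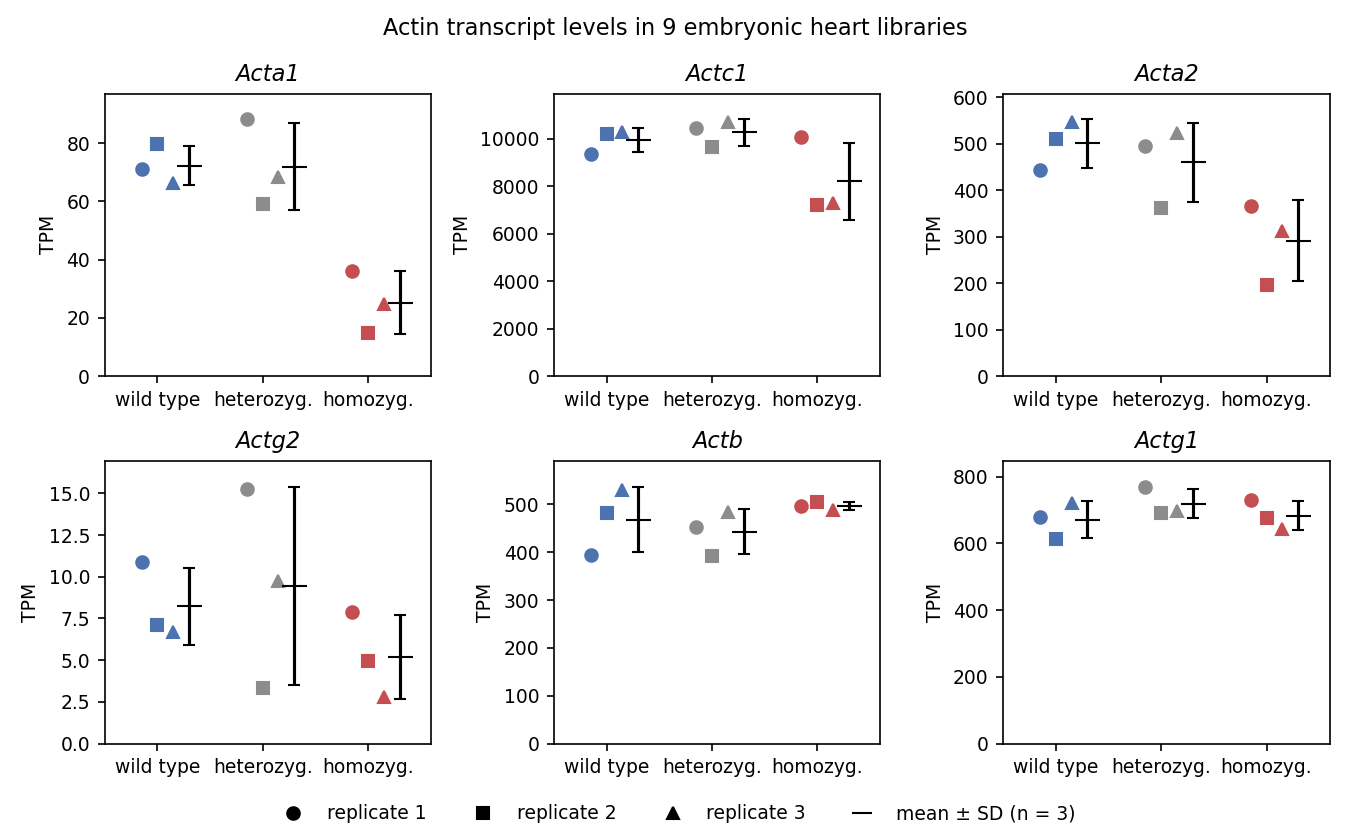
TPM (y axes, from 0, each with its own scale) of the 6 actin genes in every library, with circles, squares and triangles for replicates 1, 2 and 3 and black marks for the mean ± SD of 3 libraries. The 3 homozygous libraries lie below all others for *Acta1*, whereas *Actb* and *Actg1* lie at similar heights in all genotypes.

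*Acta1*, the skeletal alpha-actin that is co-expressed with the cardiac form before birth, read 71.1, 79.6 and 66.2 TPM in wild-type replicates 1, 2 and 3. Heterozygous hearts gave 88.2, 59.1 and 68.5 TPM. Homozygous hearts gave 36.2, 14.7 and 24.9 TPM. Every homozygous library was below every wild-type and heterozygous library, and homozygous replicate 2 was the lowest of all. The log2 change of TPM + 1 between homozygous and wild type was -1.56 (SE 0.27, 95% interval -2.16 to -0.97), and *Acta1* was called at an adjusted p of 0.0484 (limma, Benjamini-Hochberg over all genes). The ratio of mean TPM was 0.350. Ordered by change, *Acta1* took rank 43 of 13682 from the lowest. *Acta1* was the 1 called member of 6, beside 0.336% of all genes called in this comparison at an adjusted p under 0.05.

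This call lay close to the threshold. Over 22 other settings the change of *Acta1* was always below 0, from -1.86 to -1.23, and it was called in 9 of them, with adjusted p between 0.0107 and 0.235. Leaving out 1 library ended the call in 7 of 9 cases, the adjusted p being 0.184 and 0.235 when wild-type replicates 1 and 2 were omitted in turn, 0.0653, 0.0815 and 0.1 without heterozygous replicates 1, 2 and 3, 0.0742 without homozygous replicate 2 and 0.0532 without homozygous replicate 3. Without the 3 libraries that held transcripts of other organs, the change was -1.61 with an adjusted p of 0.179. Among libraries with Y-linked transcripts, *Acta1* was at 66.2 and 79.6 TPM in the wild type and at 14.7 and 24.9 TPM in the homozygotes. Among those with *Xist*, it was at 71.1 TPM in 1 wild-type library, at 59.1 to 88.2 TPM in 3 heterozygous ones and at 36.2 TPM in 1 homozygous one. Homozygous libraries were the lowest within either sex.

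Against heterozygous hearts, *Acta1* in homozygous hearts differed by a log2 of -1.54 (SE 0.27, adjusted p = 0.179), which did not pass the test although the libraries did not overlap. Here 0.0439% of all genes were called and 3.85% of genes were lower in homozygous than in heterozygous libraries without overlap, beside 1 actin gene of 6. With limma, 0 of 6 actin genes were called here and 3 (*Acta1*, *Acta2* and *Actc1*) had an unadjusted p under 0.05, as had 978 of all genes. The comparisons with wild type and with heterozygous hearts share the homozygous libraries.

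*Acta1* is best known from skeletal muscle, so 14 skeletal muscle markers present in the table were summed. The sum ranged from 17.2 to 33.0 TPM over the wild-type, from 17.6 to 22.4 over the heterozygous and from 17.1 to 22.8 over the homozygous libraries. *Myh2* and *Myh4*, fast myosin heavy chains of adult skeletal muscle, were under 0.1 TPM in each library. Of the 6 tested markers of this list none was called, 5 had a change below 0 between homozygous and wild type, and the median was -0.34. The fast troponin *Tnnc2* had the lowest change (-0.99), at 0.66 to 3.45 TPM in wild-type and 0.19 to 0.38 TPM in homozygous libraries. It was the 1 marker of 6 that was lower without overlap, and 0 were higher, beside 2.38% and 22.3% of all genes. Other members were detected at low levels, named here after their values were seen, with the fast troponins *Tnni2* at 3.07 to 10.4 TPM and *Tnnt3* at 1.61 to 6.07 TPM and the perinatal myosin *Myh8* at 1.93 to 6.24 TPM. What part skeletal muscle has in the *Acta1* level was not tested.

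*Actc1*, the main thin-filament actin of the heart, read 9368, 10184 and 10275 TPM in the 3 wild-type libraries. It read 10436, 9630 and 10700 TPM in the heterozygotes, and the homozygous replicates gave 10083, 7215 and 7278 TPM. Homozygous replicates 2 and 3 were lower than all other libraries, while homozygous replicate 1 fell among the wild-type values. The low replicates were those with Y-linked transcripts. Among libraries with *Xist*, *Actc1* was higher in the 1 homozygous library (10083 TPM) than in the 1 wild-type library (9368 TPM). The log2 change was -0.30 (SE 0.12, adjusted p = 0.176) against wild type and -0.34 (SE 0.12, adjusted p = 0.659) against heterozygous hearts. Neither passed the test. *Actc1* ranked 10th to 17th in abundance among all genes in a library. The cardiomyocyte marker sum, 35543 to 46005 TPM across the homozygotes and 42937 to 47362 TPM across the wild type, overlapped between genotypes as well. In that list of 15 genes, none was called against wild type and the median change was 0.02, beside 0.23 over all genes. *Ryr2*, the calcium release channel, had the highest value (0.32, adjusted p = 0.385) and *Myl2*, the ventricular regulatory light chain, the lowest (-0.27, adjusted p = 0.111). Without overlap, 2 of 15 were lower and 0 higher, beside 2.38% and 22.3% of all genes. Against heterozygous hearts 5 of 15 were lower and 0 higher without overlap, beside 3.85% and 12.0% of all genes.

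*Acta2*, the vascular smooth muscle actin, gave 444, 511 and 547 TPM in the wild-type replicates. The heterozygous replicates gave 495, 362 and 523 TPM. In the homozygous replicates it was at 366, 196 and 312 TPM. All homozygous libraries were below all wild-type libraries, and heterozygous replicate 2 lay just under homozygous replicate 1. The log2 change against wild type was -0.82 (SE 0.22, 95% interval -1.30 to -0.34), with an adjusted p of 0.106 that missed the threshold. With libraries weighted by their quality (arrayWeights) it was called, at -0.74 and an adjusted p of 0.0312, a setting that also raised the calls over all genes from 46 to 5068. Against heterozygous hearts the change was -0.69 (SE 0.22, adjusted p = 0.59). Lower in homozygous than in wild-type hearts without overlap were 2 of 6 actin genes, *Acta1* and *Acta2*, beside 2.38% of all genes. None of the 6 was higher without overlap, beside 22.3% of all genes.

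*Acta2* was read beside markers of smooth muscle. The 9 markers summed to 1137 to 1184 TPM over the wild-type, 931 to 1155 over the heterozygous and 646 to 1042 over the homozygous libraries. Wild-type and homozygous sums did not overlap either, but *Myl9* supplied most of each sum. *Myl9* was at 864 to 940 TPM in wild-type and at 465 to 762 TPM in homozygous libraries. Taken singly, 2 of 9 markers were lower and 1 higher without overlap, beside 2.38% and 22.3% of all genes. None of the 9 was called against wild type, 7 had a change below 0, and the median was -0.16 while that of all genes was 0.23. *Cnn1*, the smooth muscle calponin, had the lowest change (-1.23, SE 0.28, adjusted p = 0.0929), with 10.4 TPM ± 5.10 (SD, n = 3) in homozygous and 24.2 ± 1.78 in wild-type hearts. *Mylk*, the myosin light chain kinase, had the highest (0.52, adjusted p = 0.131). *Myl9*, picked out after its values were seen, had a change of -0.65 (adjusted p = 0.0983). The ratio of *Acta2* to the summed markers was 0.431 ± 0.0532 in wild-type and 0.361 ± 0.118 in homozygous hearts (SD, n = 3) and overlapped between them. It rests mainly on *Myl9*, whose own mean was 906 TPM in wild-type and 588 TPM in homozygous hearts. The ratio therefore does not describe *Acta2* against the other markers of the list. What part the content of smooth muscle cells has in the *Acta2* difference was not tested.

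*Actg2*, the enteric smooth muscle actin, was the rarest isoform and read 10.9, 7.10 and 6.70 TPM in wild type. The heterozygous replicates gave 15.2, 3.36 and 9.77 TPM, and the homozygous ones 7.86, 4.93 and 2.82 TPM. The genotypes overlapped, with the highest and nearly the lowest value both in heterozygous libraries. Its change of -0.63 against wild type had an SE of 0.44 and an adjusted p of 0.371, and that of -0.64 against heterozygous hearts an adjusted p of 0.78.

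*Actb*, the cytoplasmic beta-actin often used as a reference gene, was at 394, 482 and 529 TPM in the wild-type replicates. Values of 452, 392 and 485 TPM were found in the heterozygotes, and 496, 506 and 489 TPM in the homozygotes. The homozygous libraries lay close together and within the wild-type range. The log2 change against wild type was 0.10 (95% interval -0.17 to 0.37, adjusted p = 0.617), and it became -0.15 with median-ratio scaling. All homozygous libraries were above all heterozygous ones for *Actb*, by a log2 of 0.17 (SE 0.12, adjusted p = 0.784), beside 12.0% of all genes that were higher without overlap. The gap between the lowest homozygous and the highest heterozygous library was small, at 489 against 485 TPM. All heterozygous but only 1 of 3 homozygous libraries carried *Xist*, and with *Xist* as a covariate this change of *Actb* was 0.05 (adjusted p = 1.0). The same covariate took the changes of the muscle actins between homozygous and heterozygous hearts to -1.26 for *Acta1*, -0.22 for *Actc1*, -0.58 for *Acta2* and -0.15 for *Actg2*, none of them called. Within the wild-type and the homozygous group only replicate 1 carried *Xist*. An effect of sex and one of these single libraries therefore cannot be told apart in this covariate, and the wild-type one held airway and lung transcripts.

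*Actg1*, the cytoplasmic gamma-actin, had 679, 613 and 721 TPM in the wild-type replicates. The heterozygous replicates had 770, 691 and 697 TPM and the homozygous replicates 729, 675 and 642 TPM. No genotype stood apart. The change between homozygous and wild type was 0.02 (95% interval -0.19 to 0.24, adjusted p = 0.881) on the deposited scale and -0.22 with median-ratio scaling. That scaling moved the median change of all genes from 0.23 to 0.02, so all changes on it are lower by a similar amount. Relative to the median of all genes the change was -0.14 for *Actb* and -0.21 for *Actg1* on the deposited scale, against -1.79 for *Acta1*, -1.05 for *Acta2* and -0.53 for *Actc1*.

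**Figure D2:**
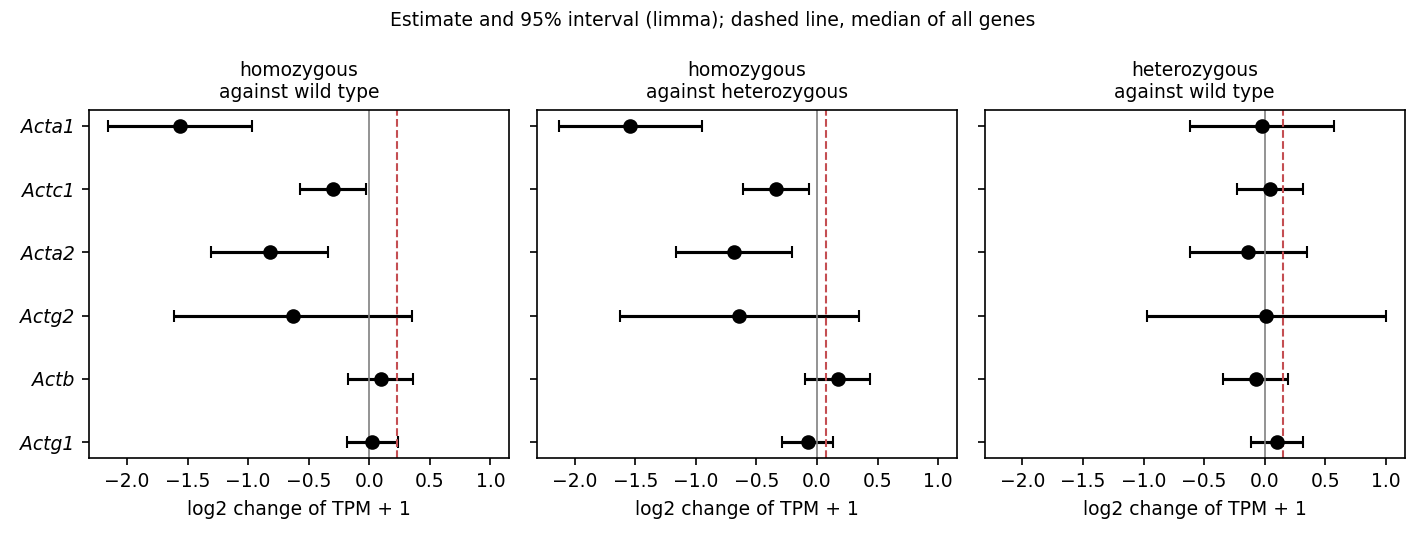
Log2 change of TPM + 1 (x axis) of each actin gene in the 3 comparisons, with points for the limma estimate, bars for the 95% interval, a grey line at 0 and a red dashed line at the median of all genes. *Acta1* and *Acta2* lie left of 0 in both comparisons of homozygous hearts, and all intervals of heterozygous against wild type include 0.

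Heterozygous hearts differed from wild-type hearts in no actin gene by more than the spread between libraries. The log2 changes were -0.02 for *Acta1* (95% interval -0.62 to 0.57), 0.04 for *Actc1* (-0.23 to 0.32), -0.14 for *Acta2* (-0.62 to 0.35), 0.01 for *Actg2* (-0.97 to 1.0), -0.08 for *Actb* (-0.35 to 0.19) and 0.10 for *Actg1* (-0.11 to 0.31), with adjusted p between 0.72 and 0.995. Called were 0 of 6 actin genes beside 0.0146% of all genes, and at an unadjusted p under 0.05 the number was 0 of 6 as well. None was higher or lower without overlap, beside 12.8% and 1.03% of all genes. These intervals leave room for a change of *Acta1* by about -0.62 to 0.57 on the log2 scale. All heterozygous libraries carried *Xist*, and 1 of 3 wild-type libraries did, so genotype and sex were partly joined in this comparison.

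Shares within the actin pool do not depend on how libraries are scaled against each other. Together the 6 genes gave 11663 TPM ± 617 in wild-type, 11959 ± 720 in heterozygous and 9693 ± 1755 in homozygous hearts (SD, n = 3), with homozygous replicate 1 (11718 TPM) inside the wild-type range. *Acta1* made up 0.648%, 0.670% and 0.545% of this pool in wild-type, 0.720%, 0.531% and 0.548% in heterozygous and 0.309%, 0.170% and 0.285% in homozygous libraries. The mean share was lower in homozygous than in wild-type hearts by 0.366 percentage points and did not overlap. The exact two-sided permutation test gave p = 0.1, the smallest value that 3 against 3 libraries allow.

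For *Acta2* the share was 4.29% ± 0.228 in wild-type, 3.83% ± 0.504 in heterozygous and 2.99% ± 0.656 in homozygous hearts (SD, n = 3), again without overlap between wild type and homozygous (exact permutation p = 0.1). The *Actc1* share was 85.3% ± 0.591, 85.8% ± 0.658 and 84.3% ± 1.51 (exact permutation p = 0.4). The *Actg1* share was 5.76% ± 0.538 in wild-type and 7.13% ± 0.832 in homozygous hearts (exact permutation p = 0.1), where homozygous replicate 1 (6.22%) barely exceeded wild-type replicate 1 (6.19%). *Actb* took 4.0% ± 0.385 and 5.23% ± 0.876 (exact permutation p = 0.2), and *Actg2* 0.0714% ± 0.0242 and 0.0522% ± 0.0180 (exact permutation p = 0.5). The mean levels of *Actg1* (671 and 682 TPM) and *Actb* (468 and 497 TPM) were nearly the same in both genotypes. Their larger mean shares in homozygous hearts were thus parts of a smaller mean pool (9693 against 11663 TPM). With 6 shares tested and no p under 0.1, none passed a threshold of 0.05, which this design cannot reach.

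**Figure D3:**
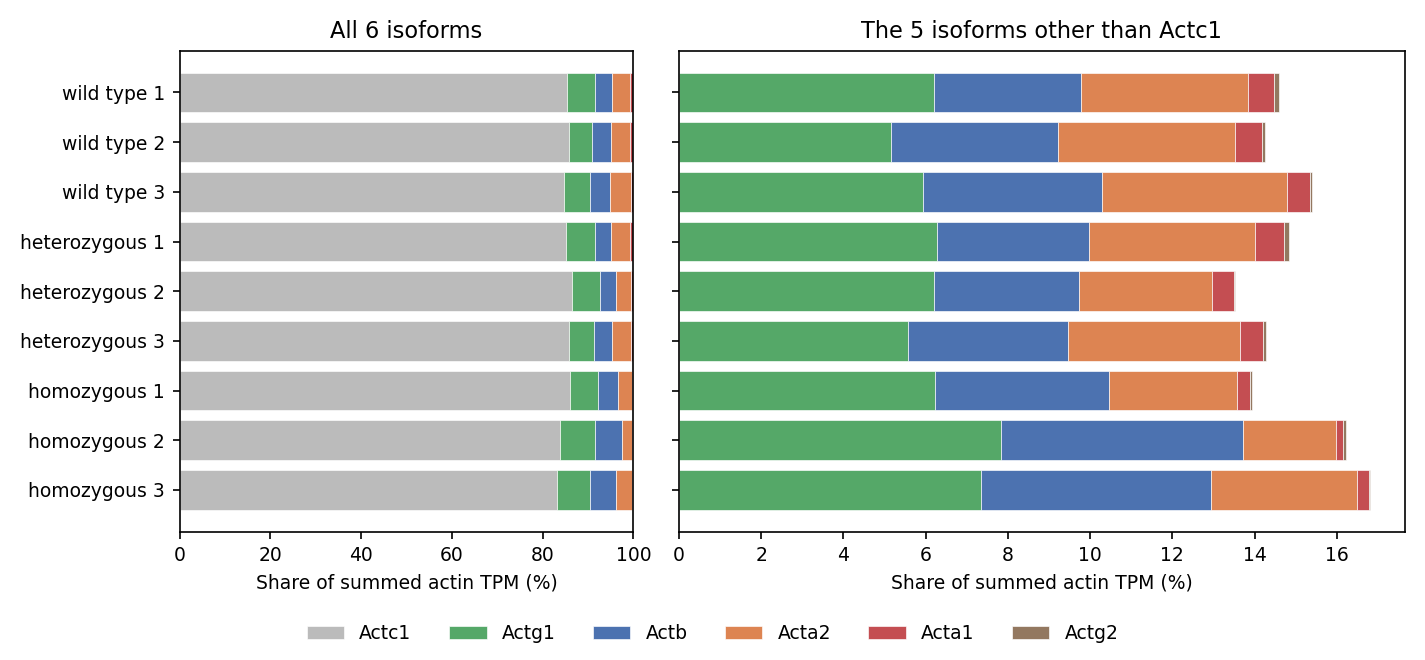
Share of the summed TPM of the 6 actin genes (x axis, percent) in each of the 9 libraries, on the left for all isoforms and on the right, on a wider scale, for those other than *Actc1*. *Acta1* (red) and *Acta2* (orange) take a smaller part in the 3 homozygous libraries than in the wild-type ones.

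Other ratios between isoforms were compared as well. *Actc1* exceeded *Acta1* by 138 ± 14.8 times in wild-type, 146 ± 24.1 times in heterozygous and 354 ± 119 times in homozygous hearts, and the lowest homozygous ratio (278) was above the highest of the other libraries (163). *Acta2* stood at 1.07 ± 0.0480, 1.03 ± 0.0941 and 0.588 ± 0.181 times *Actb* in these groups, so that *Acta2* was above *Actb* in all wild-type libraries and in heterozygous replicates 1 and 3, and below it in heterozygous replicate 2 and in all homozygous libraries. *Acta2* over *Acta1* was 6.98 ± 1.12 in wild-type and 12.0 ± 1.69 in homozygous hearts, so *Acta1* was lower by a larger factor than *Acta2*. The 4 muscle actins summed to 9.26 ± 0.570 times the cytoplasmic pair in wild type, 9.29 ± 0.266 times in heterozygous and 7.20 ± 1.21 times in homozygous hearts (SD, n = 3). Homozygous libraries were below both other groups, but homozygous replicate 1 (8.57) was only just under wild-type replicate 3 (8.71). The order of the other genes was constant, with *Actc1* above *Actg1* and *Acta1* above *Actg2* in each of the 9 libraries.

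Across the 9 libraries, log2(TPM + 1) of *Acta1* went with that of *Acta2* (Pearson r = 0.933) and *Actc1* (r = 0.876), and *Actc1* with *Acta2* (r = 0.869). *Actg2* went less closely with *Acta1*, *Actc1* and *Acta2* (r = 0.605, 0.651 and 0.573). *Actb* showed no such relation to these genes (r = -0.38, -0.13 and -0.08 in the same order). *Actg1* lay between *Actg2* and *Actb* (r = 0.229, 0.426 and 0.205). These coefficients are descriptions over 9 libraries that include the genotypes and share 1 normalization.

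Of 9952 genes that averaged 5 TPM or more, the one most like *Acta1* over the 9 libraries was *Casq1* (r = 0.967), the calsequestrin of skeletal muscle, with group means of 71.2 (wild type), 66.1 (heterozygous) and 27.9 TPM (homozygous). It was followed by *Krt80*, a keratin (r = 0.960), *Tceal7* on the X chromosome (r = 0.960), *Blvra*, biliverdin reductase (r = 0.954), and *Mthfd2*, a mitochondrial folate enzyme (r = 0.951). *Tceal7* averaged 21.8 TPM in wild-type and 7.12 in homozygous hearts. *Actc1* was most like *Blvra*, the mitochondrial ribosome gene *Mrpl42* and the tropomyosin gene *Tpm2* (r = 0.948, 0.943 and 0.942). For *Acta2* the leading genes were *Ppa1*, *Krt80* and *Tnfrsf12a* (r = 0.953, 0.951 and 0.946), and *Krt80* therefore stood in the lists of both *Acta1* and *Acta2*. *Actg2* was most like *Mrps21*, *Tagln*, a smooth muscle actin-binding protein, and *Sost* (r = 0.938, 0.932 and 0.927). *Actb* went with *Cstf3*, *Pphln1* and *Pigyl* (r = 0.969, 0.961 and 0.959), and *Actg1* with *Pcyox1l*, *Nlgn2* and *Srd5a3* (r = 0.966, 0.939 and 0.937).

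Genes that act on actin were examined as lists, each described by its counts in homozygous against wild-type hearts beside all genes, whose median change was 0.23 and of which 81.7% had a change above 0. None of the 111 tested members of the 6 lists was called with limma, and 15 had an unadjusted p under 0.05, as had 3426 of all 13682 genes. Among 11 genes for SRF and its partner factors, 8 had a change above 0 and the median was 0.17. *Srf* itself, named for its role, read 45.7 TPM ± 5.84 in wild-type and 49.6 ± 1.74 in homozygous hearts (SD, n = 3, adjusted p = 0.574). *Mkl2*, a myocardin-related coactivator of SRF, had the highest change (0.47, adjusted p = 0.169) and *Hopx*, a homeodomain partner of SRF, the lowest (-0.21, adjusted p = 0.303).

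Of 24 genes for monomer binding and filament turnover, 19 had a change above 0 and the median was 0.20. *Cfl2*, the muscle cofilin, was lowest (-0.29, SE 0.11, adjusted p = 0.155) with 123 TPM ± 5.08 in wild-type and 101 ± 13.8 in homozygous hearts, which did not overlap. In this list 1 of 24 genes was lower and 3 were higher without overlap, beside 2.38% and 22.3% of all genes. *Gmfg* had the highest change (1.16, adjusted p = 0.278), a gene of blood cells, and its SD in homozygous hearts (42.4 TPM) exceeded its mean (33.9 TPM), in the group whose replicate 3 carried the thymocyte transcripts. Among 26 genes for nucleation and elongation, 25 had a change above 0 and the median was 0.22. Of these, 8 of 26 were higher without overlap, beside the 22.3% of all genes given above. *Wasf2*, a subunit of the WAVE complex, led them among genes averaging 5 TPM or more (0.44, SE 0.15, adjusted p = 0.132), and the formin *Daam2* was lowest (-0.03, adjusted p = 0.942).

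Crosslinking and anchoring proteins (21 genes) had a median of 0.10, and among those averaging 5 TPM or more *Nebl*, the nebulette of the Z-disc, was highest (0.41, adjusted p = 0.209) and *Actn2*, the alpha-actinin of the Z-disc, lowest (-0.18, adjusted p = 0.429). Folding and modification factors (21 genes) had a median of 0.05. Their extremes at this level of abundance were *Mical1*, an actin oxidase (0.25, adjusted p = 0.323), and *Pfdn1*, a prefoldin subunit that hands actin to the chaperonin (-0.22, adjusted p = 0.255). The 8 tested genes for other actin-related proteins all had a change above 0, between *Actr10* (0.03, adjusted p = 0.874) and, among genes averaging 5 TPM or more, *Actr8* (0.20, adjusted p = 0.428). Their median was 0.10. In each of these 6 lists the median lay between 0 and that of all genes. The lowest value in any of them was -0.292 (*Cfl2*, SE 0.112). *Acta1*, *Acta2* and *Actg2* had lower changes, that of *Actg2* with an SE of 0.444. The change of *Actc1* was practically the same as that of *Cfl2* (-0.296, SE 0.123).

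**Figure D4:**
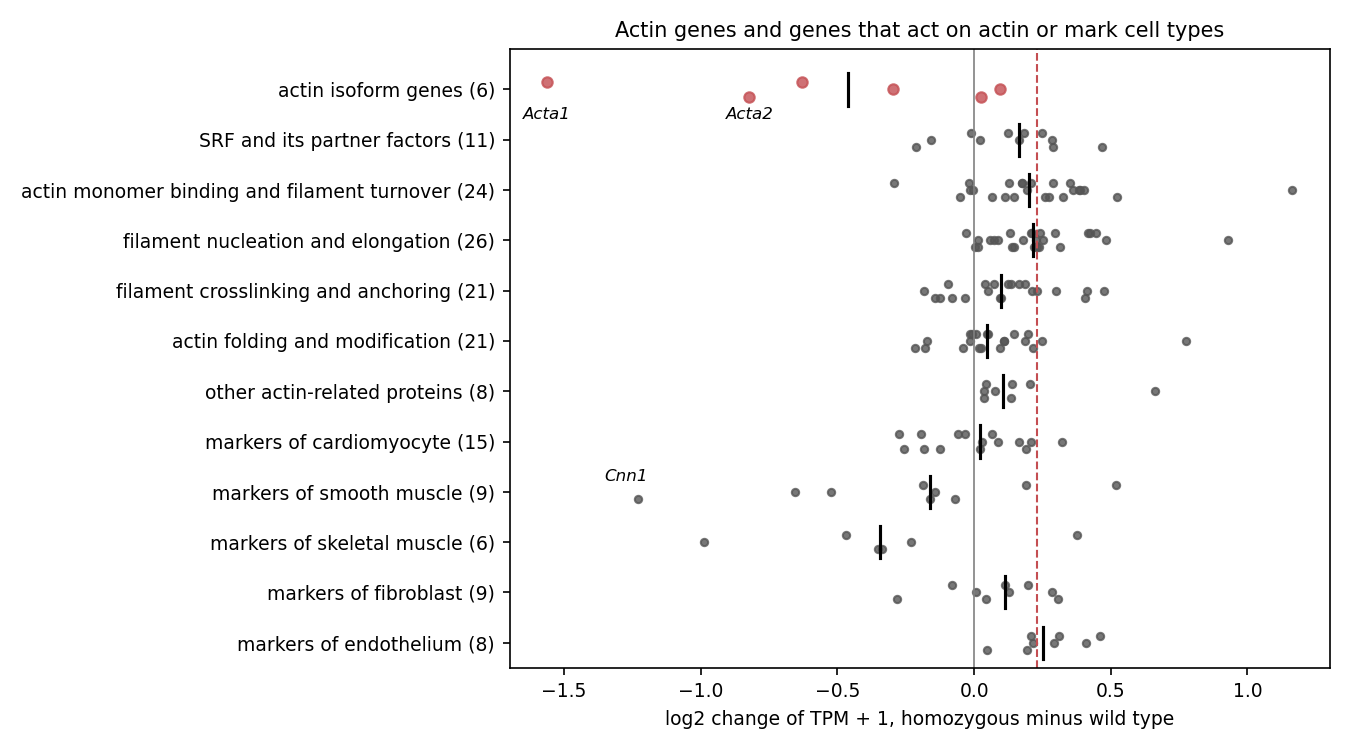
Log2 change of TPM + 1 between homozygous and wild-type hearts (x axis) for the actin genes (red), for 6 lists of genes that act on actin and for 5 lists of cell type markers, with the number tested in brackets, a short bar at each list's median and a red dashed line at the median of all genes. *Acta1* is the lowest point shown, followed by *Cnn1* in the smooth muscle list.

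Between homozygous and heterozygous hearts no member of these lists was called with limma, and 6 of 111 had an unadjusted p under 0.05, as had 978 of all genes. The medians were -0.05 for SRF and its partners, 0.08 for turnover, 0.07 for nucleation, -0.07 for crosslinking, -0.01 for folding and 0.05 for actin-related proteins, beside 0.08 over all genes. Between heterozygous and wild-type hearts none was called, 4 of 111 had an unadjusted p under 0.05, as had 940 of all genes, and the medians ran from 0.06 for folding to 0.21 for SRF and its partners, beside 0.15 over all genes.

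Other cell types were read from their markers in the same comparison of homozygous and wild-type hearts, and no marker was called with limma, while 7 of the 91 tested in all marker lists had an unadjusted p under 0.05, as had 3426 of all 13682 genes. Extremes are given among markers averaging 5 TPM or more. Fibroblast markers (9 tested) had a median of 0.11, between *Lum* (-0.28) and *Ddr2* (0.31). Endothelial markers (8 tested) had a median of 0.25, with *Egfl7* highest (0.46) and *Kdr* lowest (0.05). Macrophage markers (8 tested) had a median of 0.33, between *C1qb* (0.02) and *Ptprc* (1.47), the leukocyte antigen CD45, which was at 50.2 TPM in homozygous replicate 3 and at 0.71 to 2.19 TPM elsewhere. All 7 erythroid markers had a change below 0, between *Hba-a1* (-0.80) and *Alas2* (-0.62), and their median was -0.68, with overlapping sums of 2853 to 14604 TPM over the wild-type and 4305 to 5148 TPM over the homozygous libraries. Thymocyte markers (12 tested) had a median of 1.78, between *Thy1* (1.44) and *Lck* (2.33), airway and lung markers (6 tested) one of -1.07, between *Scgb3a2* (-2.82) and *Abca3* (0.06), and liver markers (11 tested) one of -0.11, between *Afp* (-0.91) and *Apoa2* (0.53). These last 3 lists were high in single libraries, as given above. The part of these cell types in the levels of the cytoplasmic actins, which all of them express, was not tested.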

How the data were processed

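Total RNA of E18.5 hearts was enriched for mRNA with capture beads, reverse transcribed and sequenced on an Illumina platform. Per the submitters' processing notes, the tools were Trim Galore, STAR, RSEM and DESeq2 with the mm10 build. The authors deposited TPM per gene and library, estimated with RSEM and scaled to a fixed total. Which annotation release was used, and whether counting used strand, is not given in the sources used here. TPM keeps no depth, so precision rests on the 3 libraries of each group. The table lists 24597 symbols, and 26 of them, altered to dates, were omitted.

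Values were analysed as log2(TPM + 1) with limma (v3.58.1; lmFit and eBayes with trend) in R (v4.3.3), in 1 fit of 9 libraries with genotype as the only factor. Groups came from the sample titles. Two-sided p-values were corrected after Benjamini and Hochberg over all 13682 genes, and an adjusted p under 0.05 was a call. Isoform shares were compared by exact permutation. The procedure was tested on simulated data. Promoters came from RefSeq and transcripts from GENCODE M21.

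The 6 genes, the gene lists, the marker lists and the rule for names were chosen with earlier results of these data known. The actin genes were named whatever their values. From each list, called members would have been named, and the members with the highest and the lowest change in homozygous against wild-type hearts were named among those averaging 5 TPM or more. For likeness, the 5 genes with the highest Pearson r were named for *Acta1* and 3 for each other actin gene. The alternatives were other pseudocounts, filters, scalings, weights, covariates and sets of libraries.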

Additional observations from a re-analysis of the deposited data

How the results depend on the processing

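The signs of the changes of *Acta1*, *Actc1*, *Acta2* and *Actg2* between homozygous and wild-type hearts were the same in all 22 other settings. The number of actin genes called in that comparison was 1 as reported. It was 0 with a pseudocount of 5, without a filter on low values, without the mean-variance trend, with only the 2 groups compared, and without the 3 libraries that held transcripts of other organs. It was 2 (*Acta1* and *Acta2*) with arrayWeights. It ranged from 0 to 1 when 1 library was left out. Calls over all genes ran from 11 to 5068 across these settings, against 46, and reached 2170 without wild-type replicate 3 and 247 without homozygous replicate 3. TPM holds no read depth, so the counting error behind *Actg2*, the rarest isoform, is unknown. The cause was not tested. In the other comparisons no actin gene was called in any setting.

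The replicate numbers of the titles were used as a replicate block. Same-numbered deviations from the group means correlated by 0.06, 0.04 and -0.03 for numbers 1, 2 and 3 between homozygous and wild type, by 0.02, -0.0014 and -0.03 between homozygous and heterozygous and by 0.36, 0.06 and 0.30 between heterozygous and wild type. As the correlation was not above 0.1 for every number in any comparison, and no label ties a number to a litter or batch, the numbers were not taken to pair the libraries. With the block 0 actin genes were called, the adjusted p of *Acta1* was 0.0534, and calls over all genes went from 46 to 17. For the *Acta1* share the difference within numbers is by construction the same -0.366 points, and its exact permutation p went from 0.1 to 0.25, the smallest that 3 pairs allow.

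Changes near 0 turned sign. Between homozygous and wild type, *Actb* came to -0.15 and *Actg1* to -0.22 with median-ratio scaling, *Actg1* to -0.030 when libraries were rescaled with mitochondrially encoded and haemoglobin genes removed, and *Actb* to -0.012 without the 3 libraries with transcripts of other organs. With 1 library left out, *Actb* ranged from -0.023 to 0.19 and *Actg1* from -0.039 to 0.078. Between homozygous and heterozygous, leaving out the 3 libraries gave 0.081 for *Actg2* and 0.016 for *Actg1*. Between heterozygous and wild type, *Actg2* came to -0.013 with a pseudocount of 0.1, -0.14 with median-ratio scaling, -0.17 with quantile normalization, -0.030 after the rescaling, -0.48 with *Xist* as a covariate and -0.20 without the 3 libraries. *Actc1* came to -0.12 with median-ratio scaling, -0.072 with the covariate and -0.011 without the 3 libraries. *Actg1* came to -0.063 with median-ratio scaling and *Actb* to 0.045 with the covariate. With 1 library left out of this comparison, *Acta1* ranged from -0.18 to 0.11, *Acta2* from -0.24 to 0.028, *Actg2* from -0.40 to 0.55 and *Actb* from -0.19 to 0.018. Of the shares, that of *Actc1* was higher in homozygous hearts by 1.76 points among the 4 muscle actins alone, and that of *Actg2* by 0.0047 points without the 3 libraries.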
